A study of Mus musculus with 6 samples.

Results

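The IGHV1 family, also known as J558, is the largest group of heavy chain V genes in the mouse. Its members were followed here in splenic B cells of 1 wild-type mouse and 1 mouse with knocked-in antibody genes. A member was any primary heavy chain, meaning the productive heavy chain with most unique molecular identifiers (UMIs) in a cell, whose V gene name began with IGHV1-, other than IGHV1-53. IGHV1-53 was set aside because 1 heavy chain with that gene name predominated in the knock-in mouse. Members made up 3415 of 8295 primary heavy chains and used 48 of 99 V genes. The wild-type mouse (WT) contributed 2703 of 4824 chains and the knock-in mouse (564Igi) 712 of 3471.

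The WT mouse carried the C57BL/6JRj genotype. The 564Igi mouse, of a B6.129S4(Cg) strain, was heterozygous for the kappa allele Igktm1(Igk564)Tik and for the heavy chain allele Ightm1(Igh564)Tik. Thus 1 allele of each locus held a rearranged antibody gene, and the other was free to rearrange. From each spleen, cells were captured in droplets after Ter-119-positive erythroid cells had been removed, and 5′ and V(D)J libraries were made. Age, sex and immunisation were not given in the sources used here. Read totals of the B cell tables were 24740982 (WT) and 20898886 (564Igi), with UMI totals of 927382 and 747499. The median primary heavy chain had 14 UMIs in WT and 18 in 564Igi. The mice shared 31 B cell barcodes, of which 0 had the same heavy CDR3 in both. A B cell was defined by its receptor contigs alone, since gene expression was not analysed here. With 1 mouse per group no test between groups can be made. Intervals are exact 95% binomial intervals for shares, Newcombe intervals for differences and exact conditional intervals for ratios, and they cover counting error only.

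A heavy chain variable region is assembled from a V, a D and a J segment, and the junction encodes the third complementarity-determining region (CDR3), which often forms the centre of the antigen-binding site. During B cell development a D joins a J first, and a V then joins the DJ unit. The mouse V genes lie in a row beside the D segments on chromosome 12, with IGHV1 genes filling much of the part far from the D segments. Contraction of the locus brings these distant genes within reach of the DJ unit. Most B cells keep 1 productive heavy chain, a restriction called allelic exclusion. An IGHV1 chain in a 564Igi cell can come from the free allele. A V gene can also join an already rearranged heavy chain, a process known as V gene replacement.

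In 564Igi the IGHV1 chains were of 2 kinds. Of the 712 chains, 264 or 37.1% (33.5 to 40.7) had a CDR3 ending in the residues GGFYYGMDYW, which are the last 10 residues of the predominant IGHV1-53 chain. This stretch is called the end below, and the other 448 chains are the 564Igi chains without the end. The predominant chain, with IGHJ4 and the 14-residue CDR3 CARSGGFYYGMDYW, was primary in 1818 564Igi cells and in 0 WT cells. No WT member had the end (0 of 2703), and a count of 3, the limit that 0 allows, would make 0.111%. The inserted sequence itself is not stated in the sources used here. The CDR3 base sequences below show what the end looks like in each of the 6 IGHV1 genes that carried it most often. They run 5′ to 3′, each from the cell with most heavy chain UMIs for that gene, and capitals mark the longest run shared with the predominant CDR3 counted back from its 3′ end (for the predominant chain itself, the 30 bases encoding the end).
predominant IGHV1-53 chain: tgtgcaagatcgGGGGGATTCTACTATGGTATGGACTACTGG
IGHV1-19 with the end: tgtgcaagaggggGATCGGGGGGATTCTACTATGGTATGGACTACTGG
IGHV1-5 with the end: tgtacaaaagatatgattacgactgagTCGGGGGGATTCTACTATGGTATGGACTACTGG
IGHV1-66 with the end: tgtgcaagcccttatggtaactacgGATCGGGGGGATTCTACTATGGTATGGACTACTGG
IGHV1-69 with the end: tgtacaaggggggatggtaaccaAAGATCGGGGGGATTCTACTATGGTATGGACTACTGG
IGHV1-52 with the end: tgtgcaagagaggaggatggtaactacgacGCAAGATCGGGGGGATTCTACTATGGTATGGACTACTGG
IGHV1-9 with the end: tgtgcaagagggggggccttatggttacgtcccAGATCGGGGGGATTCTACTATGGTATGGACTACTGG
IGHV1-19, 564Igi without the end: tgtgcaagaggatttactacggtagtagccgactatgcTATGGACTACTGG
IGHV1-19, WT: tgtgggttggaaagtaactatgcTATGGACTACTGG
The last 2 chains, taken by the same rule from chains with IGHJ4, share 13 bases with the predominant CDR3. The chains with the end share 33 to 39 bases in these examples and carry further, differing bases between the V gene and the shared run.

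That layout held across nearly all of the chains with the end. Their shared run had a median of 36 of the 42 bases of the predominant CDR3 (quartiles 35 and 38, range 30 to 42), and in 232 of 264 cells it was 33 to 39 bases long. The lower bound of 30 bases is close to what the choice of the end imposes. The commonest run was 35 bases, in 60 cells, followed by 38 bases in 48 cells and 39 bases in 31. Ahead of the shared run lay a median of 24 CDR3 bases (quartiles 19 and 28, range 0 to 43). The CDR3 was longer than that of the predominant chain in 256 cells and equally long in 8. In 7 of those 8 it was the whole predominant CDR3 under another V gene name, once each for IGHV1-34, IGHV1-50, IGHV1-62-2, IGHV1-62-3, IGHV1-72, IGHV1-74 and IGHV1-85. The 264 cells held 253 distinct CDR3 base sequences, so few cells repeated a junction. Among chains without the end, the longest shared run was 29 bases in 564Igi and 23 in WT, and the median for IGHJ4 chains was 13 in both.

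**Figure D1:**
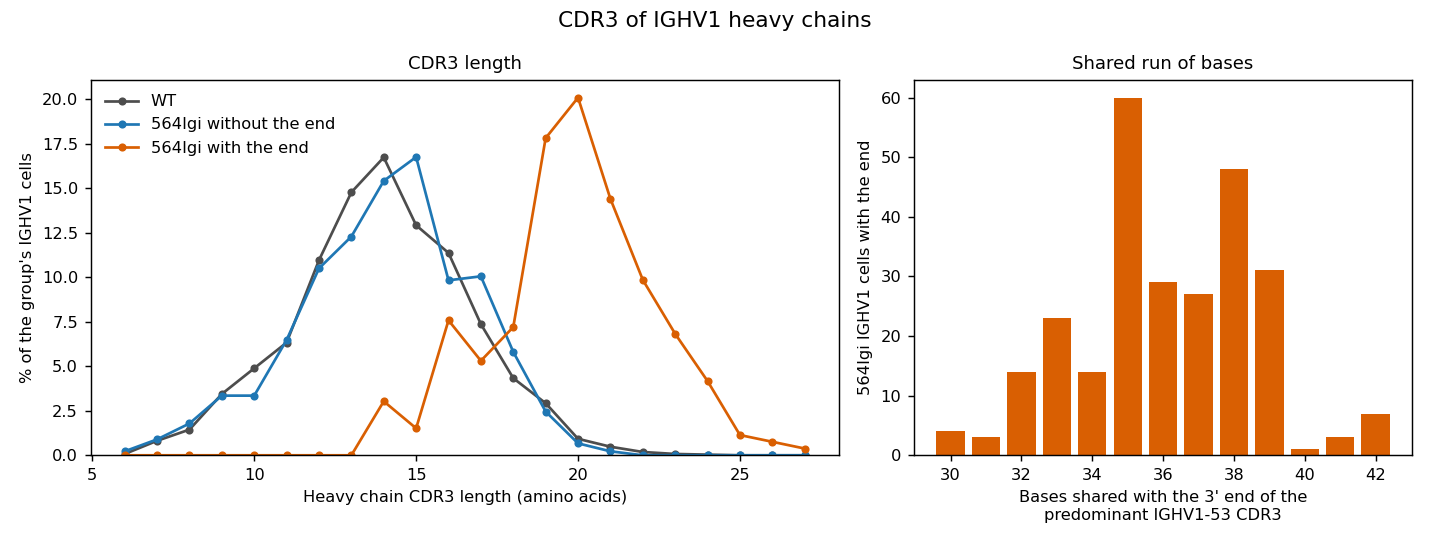
The left panel plots the share of each group's IGHV1 cells (percent) by heavy chain CDR3 length in amino acids; the WT and 564Igi curves without the end both centre on 14 residues and the curve with the end on 20. The right panel is a count of the 264 564Igi cells with the end by the number of bases shared with the 3′ end of the predominant CDR3, with its highest bar at 35 bases.

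The D segment named for the chains with the end also differed from that of other members. IGHD2-8 was named in 63 cells or 23.9% (18.9 to 29.5), IGHD3-1 in 53 or 20.1% (15.4 to 25.4) and IGHD2-4 in 46 or 17.4% (13.0 to 22.5). IGHD3-1 is also the D gene named for the predominant chain, in 1818 of 1818 cells, and another D gene was named for 206 of the 264 chains. IGHD1-1 was named in 12.1% (8.44 to 16.7) of chains with the end. In the other members it was the commonest D segment, with 36.4% (34.6 to 38.2) of WT chains and 33.04% (28.7 to 37.6) of 564Igi chains without the end. IGHD2-8 made up 5.11% in WT and 3.79% without the end. Chains of other V families that had the end showed the same leading D genes, with IGHD2-8 at 23.7% and IGHD3-1 at 18.9%.

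IGHV1 chains were less prominent in 564Igi, and least so among chains with the end. Leaving IGHV1-53 out of the denominator, they were 57.4% (56.0 to 58.9) of 4706 WT chains, 49.6% (46.3 to 52.9) of 903 564Igi chains without the end and 38.7% (35.0 to 42.5) of 682 with it. The WT and 564Igi shares without the end differed by -7.82 points (-11.4 to -4.22), and those with and without the end by -10.9 points (-15.8 to -5.88). Some other families had higher shares with the end, and others lower ones. IGHV2, a small family close to the D segments also called Q52, was 5.76% in WT, 8.86% without the end and 15.2% with it. IGHV5, the family that lies nearest the D segments, was 7.08%, 8.53% and 11.9% in the same order. IGHV3 was 4.63% in WT, 4.32% without the end and 8.50% with it. IGHV9 was 6.25%, 7.31% and 9.53%, and IGHV8 5.76%, 5.20% and 6.74%. In the other direction, IGHV10 went from 3.10% without the end to 1.03% with it, a difference of -2.07 points (-3.56 to -0.584), and was 2.70% in WT. IGHV14 was 3.89% in WT, 6.09% without the end and 3.81% with it, and all remaining families together were 6.502%, 6.98% and 4.55%. Shares of 1 total are linked, so these differences are not independent of the IGHV1 share.

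In WT the use of IGHV1 genes was broad but uneven. Of the 48 genes 47 had a cell, the median over all 48 was 42 cells, and the 5 most used held 31.6% of members. IGHV1-26 led with 238 cells or 8.81% (7.76 to 9.94), then IGHV1-64 with 184 cells or 6.81% (5.89 to 7.82). IGHV1-81 (148 cells), IGHV1-72 (144), IGHV1-82 (140) and IGHV1-9 (134) followed, and the intervals of these 4 neighbours overlap. IGHV1-15 (116), IGHV1-80 (110), IGHV1-55 (103) and IGHV1-76 (95) completed the first 10. IGHV1-72, also named V186.2 and known for antibodies to the hapten NP in C57BL/6 mice, was thus the fourth in rank. At the D-near edge of the family IGHV1-4 had 8 cells, and at the far edge IGHV1-85 had 35. Calls between close IGHV1 sequences were taken as deposited, and may split cells among near-identical genes.

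Without the end, the 564Igi family kept a WT-like ranking. Of the 10 most used WT genes, 8 were among the 10 most used here. Shares of the 48 genes had a Pearson correlation of 0.912 (Spearman 0.928) between the mice, a description across genes that share the same gene names and depth of sampling. IGHV1-64 led with 43 of 448 cells or 9.60% (7.03 to 12.7), ahead of IGHV1-26 with 39 or 8.71% (6.26 to 11.7), and their intervals overlap. The IGHV1-64 count includes 6 cells whose CDR3 was a near copy of the predominant one, as described below, and its lead rests on them. IGHV1-9 and IGHV1-81 each had 26 cells, or 5.80% (3.83 to 8.39).

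Single genes were then compared where both groups together held at least 20 cells, and counted as apart where the shares of IGHV1 cells differed at least 1.5 times. For 564Igi chains without the end against WT, 11 of 31 members (35.5%) were apart, 4 higher (12.9%) and 7 lower (22.6%), with a median ratio of 0.989. Taken as shares of all chains other than IGHV1-53, 11 of 31 members (35.5%) and 28 of 65 V genes of any family (43.1%) were apart, so the members' count was no larger than the background. IGHV1-74 was the clearest among the higher genes, at 4.69% against 2.29% in WT, a ratio of 2.04 (1.18 to 3.40). IGHV1-82 was the clearest among the lower ones, at 2.68% against 5.18%, a ratio of 0.517 (0.261 to 0.932). For the other 9 the interval of the ratio included 1. They were IGHV1-61 (2.41), IGHV1-58 (2.01) and IGHV1-71 (1.51) on the higher side, and IGHV1-76 (0.508), IGHV1-42 (0.536), IGHV1-75 (0.556), IGHV1-62-2 (0.561), IGHV1-54 (0.616) and IGHV1-50 (0.656) on the lower. With cells limited to a single chain of each kind, IGHV1-58, IGHV1-71, IGHV1-62-2 and IGHV1-75 came nearer to 1, at 1.27, 1.19, 0.792 and 0.770. IGHV1-50 was at 0.721 with barcodes of both tables kept. IGHV1-42 was at 0.274 without cells of 1000 or more heavy chain UMIs.

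Chains with the end drew on a different set of genes. IGHV1-19 (chromosome 12, 114708648 to 114708941 in GRCm38.p6) was the most used, with 42 of 264 cells or 15.9% (11.7 to 20.9), against 14 of 448 or 3.13% (1.72 to 5.19) without the end and 90 of 2703 or 3.33% (2.69 to 4.08) in WT. Its 42 cells held 42 distinct chains, so the excess was not a single clone. IGHV1-5 (114513330 to 114513623) came next with 25 cells or 9.47% (6.22 to 13.7), against 2.46% without the end and 1.92% in WT. IGHV1-66 (115593110 to 115593403) and IGHV1-69 (115623203 to 115623595) each had 17 cells or 6.44% (3.80 to 10.1), where IGHV1-66 had 1.56% and IGHV1-69 2.46% without the end. IGHV1-52 had 14 cells or 5.30% (2.93 to 8.74). The 5 most used genes held 43.6% of chains with the end, compared with 35.3% without it. Only 2 of the 10 most used genes were shared between these groups, and the correlation over the 48 genes was 0.215 (Spearman 0.493), again as a description. That count rests on a tie, since IGHV1-18, IGHV1-19 and IGHV1-52 shared rank 10 without the end and IGHV1-18 was taken by name order. Either of the others would have added a shared gene.

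The genes that led elsewhere in the family were scarce among chains with the end. IGHV1-26 had 3 of 264 cells or 1.14% (0.235 to 3.28), against 8.71% without the end, and IGHV1-64 likewise had 3 cells, against 9.60%. IGHV1-72 had 1 cell or 0.379% (0.00959 to 2.09), against 21 of 448 or 4.69%. That 1 cell is the IGHV1-72 chain listed above with the whole predominant CDR3. IGHV1-75, with 76 WT cells and 7 without the end, had 0 cells with it, where 3 cells would make 1.14%. IGHV1-61 and IGHV1-58 also had 0.

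By the rule of 20 cells and 1.5 times, 10 of 14 members (71.4%) were apart between chains with and without the end, 5 higher (35.7%) and 5 lower (35.7%). As shares of all chains other than IGHV1-53, 12 of 14 members (85.7%) and 23 of 30 V genes of any family (76.7%) were apart, so here too the IGHV1 count was near the background. The higher ratios were 5.09 (2.73 to 10.1) for IGHV1-19, 4.12 (1.62 to 11.8) for IGHV1-66, 3.86 (1.83 to 8.68) for IGHV1-5, 2.62 (1.16 to 6.19) for IGHV1-69 and 1.70 (0.750 to 3.84) for IGHV1-52. The lower ratios were 0.0808 (0.00195 to 0.502) for IGHV1-72, 0.118 (0.0235 to 0.370) for IGHV1-64, 0.131 (0.0258 to 0.411) for IGHV1-26, 0.392 (0.132 to 0.973) for IGHV1-81 and 0.566 (0.220 to 1.30) for IGHV1-55. The intervals for IGHV1-52 and IGHV1-55 include 1, and IGHV1-52 was at 1.46 with each distinct chain counted once. When the end was defined by its 30 bases with up to 2 mismatches, the IGHV1-64 ratio was 0.240. IGHV1-9, the sixth gene by cells with the end, had 13 cells and a ratio of 0.848 (0.400 to 1.71), an interval that includes 1.

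**Figure D2:**
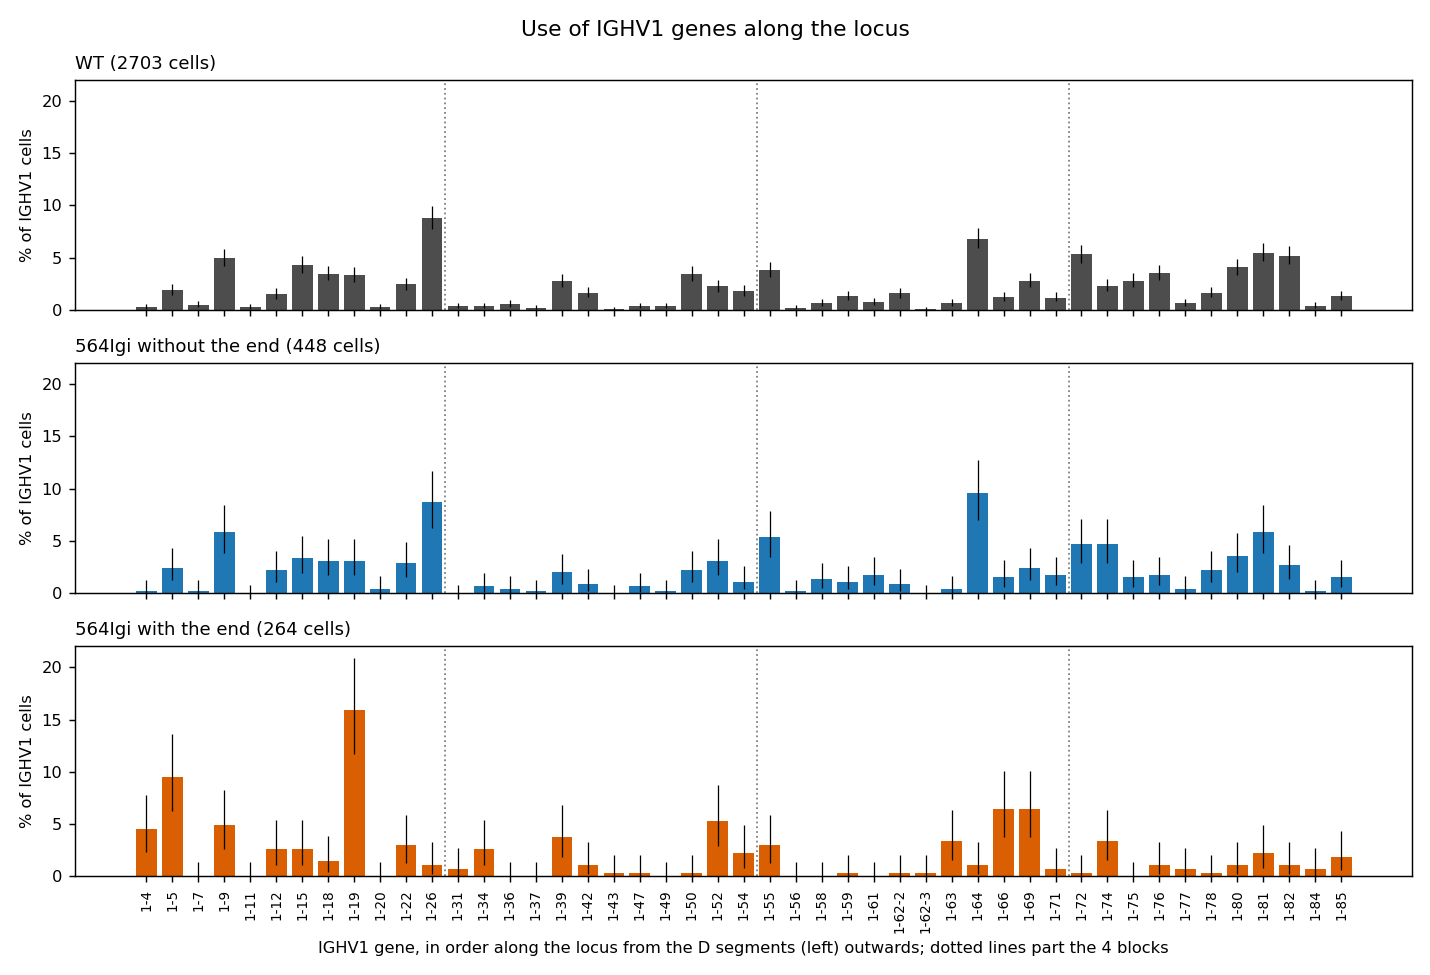
Each bar is the share of a group's IGHV1 cells (percent) that used 1 gene, with exact 95% intervals, for WT, 564Igi without the end and 564Igi with the end from top to bottom; genes run from the D-near side (left) outwards and dotted lines part the 4 blocks. IGHV1-26 and IGHV1-64 stand out in the upper panels, and IGHV1-19 at 15.9% and IGHV1-5 at 9.47% in the lowest.

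**Figure D3:**
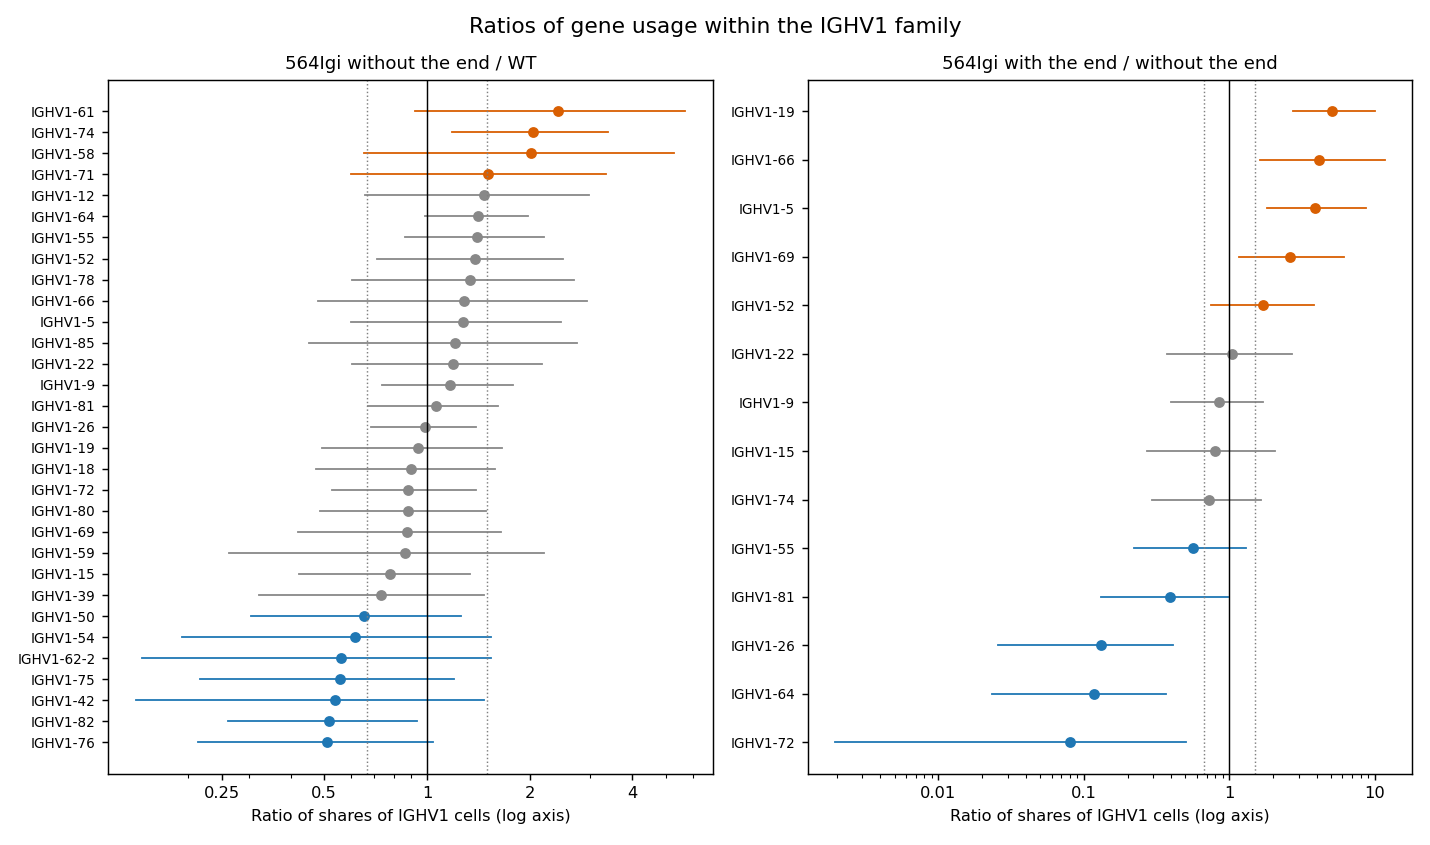
Points are ratios of shares of IGHV1 cells on a log axis, with exact 95% intervals, for 31 genes in 564Igi without the end against WT (left) and 14 genes with against without the end (right); dotted lines mark 1.5 times either way and coloured points lie beyond them. On the left most intervals cross 1, whereas on the right IGHV1-19, IGHV1-66, IGHV1-5 and IGHV1-69 lie above it and IGHV1-72, IGHV1-64, IGHV1-26 and IGHV1-81 below.

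Along the locus, chains with the end had a larger share in the D-near part of the family and a smaller one in the D-far part. The 47 member genes with a RefSeq position were parted into 4 blocks of nearly equal gene number, from IGHV1-4 to IGHV1-26 (chromosome 12, 114487136 to 114788665, D-near), IGHV1-31 to IGHV1-54 (114829264 to 115193968), IGHV1-55 to IGHV1-71 (115208137 to 115742506) and IGHV1-72 to IGHV1-85 (115757984 to 116000321, D-far). The D-near block held 32.1% (30.3 to 33.9) of WT chains, 32.6% (28.3 to 37.1) of 564Igi chains without the end and 46.5% (40.4 to 52.8) of those with it. The D-far block held 32.7% (30.9 to 34.5), 29.2% (25.1 to 33.7) and 13.5% (9.56 to 18.2). Between chains with and without the end the difference was 13.9 points (6.27 to 21.6) for the D-near block and -15.8 points (-21.7 to -9.45) for the D-far block. Between chains without the end and WT the same blocks differed by 0.514 points (-4.17 to 5.40) and -3.43 points (-7.97 to 1.36). The D-near gain with the end was carried by few genes. IGHV1-19 and IGHV1-5 held 42 and 25 of the 121 D-near cells with the end, against 14 and 11 of the 146 without it. IGHV1-4 held 12 against 1, and IGHV1-26 went the other way with 3 against 39.

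The trend was not the same for every gene of a block. Within the D-near block, 12 of the 13 IGHV1-4 cells of 564Igi had the end, 25 of 36 IGHV1-5 cells (69.4%) and 42 of 56 IGHV1-19 cells. In the same block it was in 3 of 42 IGHV1-26 cells (7.14%). Further out, it was in 17 of 24 IGHV1-66 cells (70.8%), 17 of 28 IGHV1-69 cells (60.7%) and 9 of 11 IGHV1-63 cells (81.8%), but in 3 of 46 IGHV1-64 cells (6.52%). IGHV1-63 and IGHV1-64 are neighbours on the chromosome. In the D-far block it was in 9 of 30 IGHV1-74 cells, 6 of 32 IGHV1-81 cells and 1 of 22 IGHV1-72 cells. IGHV1-63 is named for its place beside IGHV1-64, after its values were seen. The block shares therefore sum genes that differ widely.

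The second block held 14.2% of WT chains, 11.6% of 564Igi chains without the end and 17.3% of those with it. The third held 21.1%, 26.6% and 22.7%, and there the chains without the end exceeded WT by 5.51 points (1.18 to 10.1).

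CDR3 lengths followed the same division. WT members had a median of 14 residues (quartiles 12 and 16, range 6 to 24), and 564Igi members without the end had the same median and quartiles (range 6 to 21). With the end the median was 20 residues (quartiles 19 and 21, range 14 to 27). At least 20 residues were found in 152 of 264 chains with the end, 4 of 448 without it and 46 of 2703 in WT. Requiring a fixed end of 10 residues itself favours longer CDR3s. Other V families showed the same medians of 14, 14 and 20 residues in the 3 groups.

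Positively charged CDR3s, which are common among antibodies to nucleic acids, were counted as those with a net charge of at least 1 (arginine and lysine minus aspartate and glutamate). They were 25.3% (23.7 to 27.0) of WT members and 27.0% (22.9 to 31.4) of 564Igi members without the end, a difference of 1.67 points (-2.73 to 6.33). With the end the share was 36.4% (30.6 to 42.5), higher than without it by 9.35 points (2.09 to 16.7). With a minimum of 5 UMIs per contig the difference was 7.20 points (-0.228 to 14.7), an interval that includes 0. The end itself carries 1 aspartate and no arginine or lysine. The run shared with the predominant CDR3 often reached further, with a median of 36 bases, and a run of 36 bases takes in that chain's arginine codon. The part of this arginine in the charge difference was not tested. In other V families the shares were 22.1% in WT, 29.9% without the end and 40.4% with it. Genes of the family differed in this respect in WT. IGHV1-69 reached 39.5% (28.4 to 51.4), IGHV1-74 had 4.84% (1.01 to 13.5) and IGHV1-71 9.38% (1.98 to 25.02).

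The V gene also sets how the CDR3 begins. In WT most genes gave the residues CAR. CTR was the commonest start for IGHV1-5 (36 of 52 cells) and IGHV1-15 (89 of 116), and CAI for IGHV1-74 (40 of 62), so that gene lacks the arginine that others bring. IGHV1-62-2 and IGHV1-71 began with CAR in 100% of WT cells, and had the longer median CDR3s of 16 and 15.5 residues. In chains with the end, CAR was the commonest start for IGHV1-5, in 12 of 25 cells, unlike in WT. Whether IGHV1-5 is the right name for these cells was not tested. The IGHV1-5 share and ratio with the end rest on the deposited names.

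J gene usage in the chains without the end was like that in WT. IGHJ1 to IGHJ4 made up 14.4%, 34.4%, 24.3% and 26.9% of WT members and 14.5%, 32.4%, 24.3% and 28.8% of 564Igi members without the end. IGHJ4 differed by 1.90 points (-2.59 to 6.64) between them. With the end, 264 of 264 chains had IGHJ4, which the end itself fixes because its last residues are those that IGHJ4 encodes. Within WT, IGHV1 chains had more IGHJ2 than other V families, by 7.23 points (4.54 to 9.90), and less IGHJ1, by -6.38 points (-8.63 to -4.14).

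Nearly all IGHV1 chains were unswitched. IgM and IgD share a heavy chain variable region and arise by alternative splicing, and a contig was named for the constant gene it was read into. IGHM was named in 75.5% (73.7 to 77.1) of 2520 WT members, 83.3% (79.5 to 86.7) of 432 without the end and 88.9% (84.4 to 92.5) of 253 with it. IGHD was named in 23.9% (22.3 to 25.6), 13.9% (10.8 to 17.5) and 11.1% (7.48 to 15.6). The IGHD share without the end was lower than in WT by -10.04 points (-13.6 to -6.06), while the groups with and without the end differed by -2.82 points (-7.92 to 2.68). Other V families had IGHD shares of 18.5% in WT, 12.1% without the end and 9.73% with it, so the lower share in 564Igi was found in them too. In WT the IGHD share of IGHV1 chains exceeded that of other families by 5.41 points (2.94 to 7.84). The median primary heavy chain had 13 UMIs in WT members and 18 in other families, and the part of this depth gap in the IGHD difference was not tested.

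Switched constant genes, which mark cells that have changed class after activation, were rare. They were named in 15 WT members, or 0.595% (0.334 to 0.980), in 12 564Igi members without the end, or 2.78% (1.44 to 4.80), and in 0 of 253 with the exact end, where 3 cells would make 1.19%. Without the end the share exceeded that of WT by 2.18 points (0.794 to 4.22). In other V families the shares were 0.580%, 0.674% and 1.25%. The cells behind these shares were of different kinds. The 15 WT cells held 9 distinct CDR3s. Of these cells, 5 held a single IGHV1-12 chain with IGHA, 1 with 12301 heavy chain UMIs and the others with 2 to 23. The 12 cells of 564Igi held 12 distinct CDR3s.

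IgG2 genes led the switched 564Igi chains, with IGHG2B in 5 cells, IGHG2C in 3, IGHG1 in 2, and IGHG3 and IGHA in 1 each. In WT IGHA was named in 7 cells, IGHG1 and IGHG2B in 3 each, and IGHG2C and IGHG3 in 1 each. IGHE was not found in any group. Of the 12 switched 564Igi cells, 8 had the light chain IGKV4-59 with IGKJ5. One was an IGHV1-64 chain whose CDR3 was a near copy of the predominant one, and without near copies the share was 2.59% (1.30 to 4.59). Another, an IGHV1-5 chain with IGHG2C, carried the end with 1 residue changed, so the exact match left it among chains without the end; it was picked out after its values were seen. When the end was defined by its 30 bases with up to 2 mismatches, 2 of 263 chains with the end were switched, or 0.760% (0.0922 to 2.72), and 10 of 422 without it, or 2.37% (1.14 to 4.31).

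Near copies were a small group of their own. A CDR3 as long as the predominant one with 1 to 5 bases changed was found in 8 of the 448 564Igi cells without the end, or 1.79% (0.774 to 3.49), and in 0 WT members. Of the 8 cells, 6 were named IGHV1-64, with 4 distinct CDR3s, and IGHV1-34 and IGHV1-85 had 1 each. These chains differ from the predominant chain within the end and so fall outside the exact match.

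**Figure D4:**
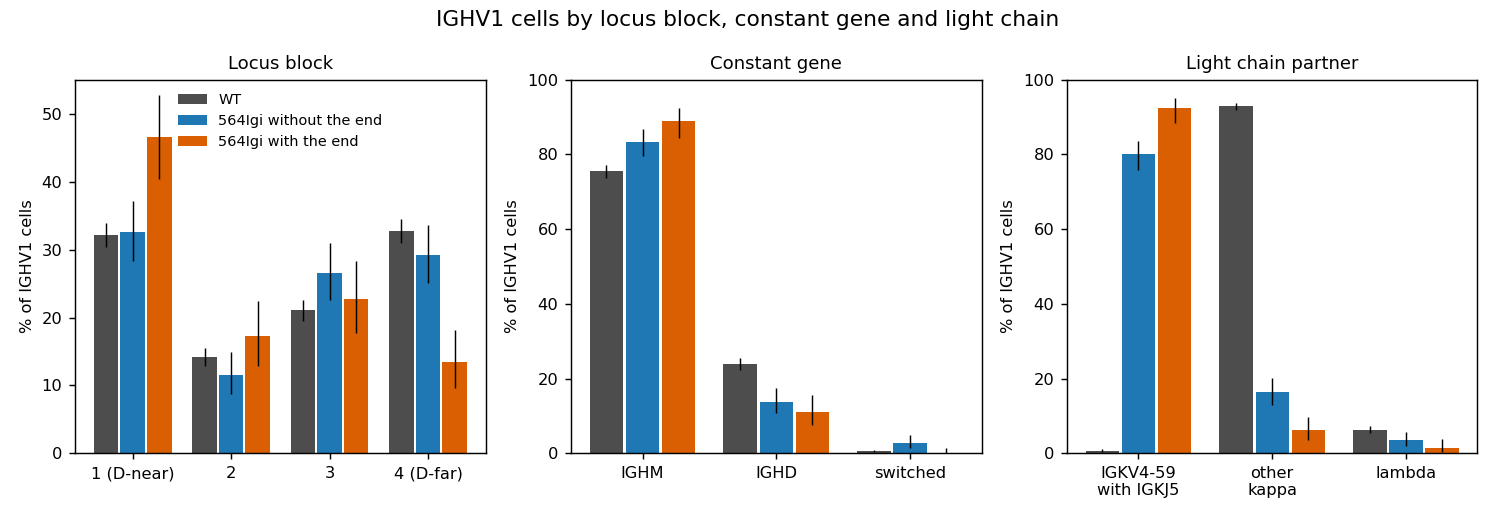
Bars give the share of IGHV1 cells (percent) by locus block, constant gene and light chain partner in WT, 564Igi without the end and 564Igi with the end, with exact 95% intervals. Chains with the end are highest in the D-near block at 46.5% and lowest in the D-far block at 13.5%, and IGKV4-59 with IGKJ5 is found with 80.0% and 92.3% of the 564Igi chains and 0.672% of WT ones.

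A single light chain combination accompanied most IGHV1 chains of the 564Igi mouse. IGKV4-59 joined to IGKJ5 was the primary light chain in 240 of 260 cells with the end, or 92.3% (88.4 to 95.2), in 352 of 440 without it, or 80.0% (76.0 to 83.6), and in 18 of 2679 WT cells, or 0.672% (0.399 to 1.06). The share with the end was higher by 12.3 points (6.95 to 17.3). Restricting both groups to cells with exactly 1 heavy and 1 light chain gave 91.0% without the end and a difference of 6.86 points (2.98 to 10.6). Other V families had 80.4% without the end and 86.8% with it. Among IGHV1 genes with at least 20 cells the share without the end ranged from 68.0% (46.5 to 85.1) for IGHV1-81 to 92.9% (80.5 to 98.5) for IGHV1-64, with overlapping intervals. With the end, IGHV1-19 had 87.8% (73.8 to 95.9) and IGHV1-5 88.0% (68.8 to 97.5).

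Lambda light chains, a second light chain type that usually rearranges after kappa, were less frequent beside IGHV1 chains than beside others. In WT they were primary in 171 of 2679 members or 6.38% (5.49 to 7.38), compared with 12.5% (11.1 to 14.03) for other V families, a difference of -6.10 points (-7.88 to -4.37). All 3 lambda V genes contributed. IGLV1 was at 4.37% against 7.08%, IGLV2 at 1.42% against 3.59% and IGLV3 at 0.597% against 1.82%. On the kappa side the IGKV12 family was the more frequent with IGHV1, at 8.25% against 5.76%, a difference of 2.49 points (0.975 to 3.97). Within the family the WT lambda share reached 15.8% (8.43 to 26.0) for IGHV1-69 and was 5.56% (2.43 to 10.7) for IGHV1-72, which pairs with lambda in antibodies to NP.

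In 564Igi the lambda share was 3.64% (2.09 to 5.84) without the end and 1.54% (0.421 to 3.89) with it. Among cells that lacked IGKV4-59 with IGKJ5 as primary chain, lambda was primary in 16 of 88 or 18.2% (10.8 to 27.8) without the end and in 4 of 20 with it, compared with 6.43% (5.52 to 7.43) in WT. The difference between chains without the end and WT was 11.8 points (4.27 to 21.5). Other V families also differed, with 12.6% in WT and 30.3% without the end, by 17.8 points (8.36 to 28.5). The light chain partners of WT members were otherwise dispersed, led by IGKV1-135 with 126 cells, IGKV10-96 with 122, IGKV1-117 and IGLV1 with 117 each and IGKV1-110 with 88.

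Second chains were uncommon. Of WT members 6.55% (5.64 to 7.55) held a further productive heavy chain, as did 3.57% (2.05 to 5.74) of 564Igi members without the end and 4.92% (2.65 to 8.27) with it. In 564Igi it was the predominant IGHV1-53 chain in 3 of 448 cells without the end and in 8 of 264 with it, or 3.03% (1.32 to 5.88). As a background, that chain was read in 888 of 4573 564Igi barcodes, or 19.4%, that were called T cells and not B cells. That count took any heavy chain contig with the predominant CDR3. The second chains had to be productive, high-confidence and of at least 2 UMIs, so the shares follow unlike rules and cannot be compared directly. A second light chain was found beside 17.5% (16.1 to 19.0) of WT members, 13.6% (10.6 to 17.2) without the end and 5.77% (3.26 to 9.34) with it. The difference between the 564Igi groups was -7.87 points (-12.2 to -3.16). Barcodes with 2 B cells add second chains, and no doublet caller was run, so their part in these shares was not tested.

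Expanded clonotypes, meaning cells that shared V, J and CDR3 bases of both chains, were few. They held 25 of 2679 WT members or 0.933% (0.605 to 1.37), 10 of 440 without the end or 2.27% (1.10 to 4.14) and 7 of 260 with it or 2.69% (1.09 to 5.47). The largest was the WT IGHV1-12 clonotype with 7 cells, paired with IGKV8-24, whose cells ranged from 2 to 12301 heavy chain UMIs. Some others also had a wide range, such as 6 to 3632 for IGHV1-26 without the end, and some a narrow one, such as 19 to 38 for IGHV1-52 with the end. Whether low-UMI barcodes that share a clonotype with a high-UMI cell are separate cells was not tested. With the end the clonotypes used IGHV1-52 (3 cells), IGHV1-4 (2) and IGHV1-5 (2), all with IGHM. Since most 564Igi cells share a light chain, a match of both chains is less demanding in that mouse. Cells with at least 1000 heavy chain UMIs, a level seen in antibody-secreting cells, were 12 of 2703 in WT, 11 of 448 without the end and 1 of 264 with it. The last was the IGHV1-19 cell with 4689 UMIs shown above.

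Nonproductive IGHV1 rearrangements were also read. They were 18 of 51 nonproductive heavy contigs in WT B cells, or 35.3% (22.4 to 49.9), and 8 of 20 in 564Igi, with an interval of 19.1 to 63.9%. Of the 8 in 564Igi, 7 ended in the same 30 bases as the predominant CDR3, whereas 0 of the 18 in WT did. They were named IGHV1-26, IGHV1-31, IGHV1-55 and IGHV1-82, with 2 to 14 UMIs each. In 6 of the 7 the cell also held a productive heavy chain, and in all 6 that chain lacked the end. With 20 contigs in all, these shares have wide intervals.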

How the data were processed

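Each row of a deposited table is an assembled receptor contig, with its counts of reads and UMIs as raw counts per the file headers. Cell Ranger 3.0.2 and mm10 are named in the submitters' processing notes. Of 6 libraries the 4 V(D)J libraries were used. Barcodes called B cells were kept unless the T cell library of that mouse called them too, which left out 345 in WT and 373 in 564Igi. High-confidence, productive contigs of at least 2 UMIs were used. Positions come from RefSeq (GRCm38.p6). It matched 47 of 48 member genes; IGHV1-unknown1, with 4 cells, had none and is outside the blocks.

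Named genes were the 10 with most WT cells, up to 6 higher and 6 lower per comparison, both edge genes and IGHV1-72. Members and lists were chosen with earlier results of these data known. Kept bases, D genes, near copies and nonproductive ends were added after seeing the data. The counting was tested on simulated data. Computation used SciPy 1.17.1, NumPy 2.4.6 and pandas 2.3.3 under Python 3.11.15, and figures matplotlib 3.10.9. Alternatives changed the UMI minimum (1 or 5), the barcodes and contigs kept, the unit, the definition of the end, the gene thresholds and the number of blocks.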

Additional observations from a re-analysis of the deposited data

Results flagged for a closer look

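IGHV1 chains were also read in barcodes called only as T cells, which the comparisons do not use. They were found in 1 of 3263 such WT barcodes, or 0.0306% (0.000776 to 0.171), and in 7 of 4573 in 564Igi, or 0.153% (0.0616 to 0.315), at a median of 2 UMIs in 564Igi.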

How the results depend on the processing

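The 29 shares, differences, medians and counts that answer a comparison and 21 ratios of single genes were recomputed under up to 15 settings. Of 290 alternative values of the first kind, 283 stayed within the reported value's interval or within 1.5 times of the reported count, and 7 moved. No difference whose interval excluded 0 changed sign. Of those whose interval included 0, net charge of 1 or more without the end minus WT was -0.525 points with exactly 1 heavy and 1 light chain, and the D-nearest block without the end minus WT was -2.09 points with 2 blocks. All 208 alternative gene ratios that were formed kept their direction and lay within the reported ratio's interval. A ratio was left out where either group had 0 cells, so that of IGHV1-72 with against without the end was formed under 8 settings. IGHV1-50, IGHV1-52, IGHV1-58, IGHV1-62-2, IGHV1-71 and IGHV1-75 each came within 1.5 times of 1 under at least 1 setting. With exactly 1 heavy and 1 light chain per cell, IGKV4-59 with IGKJ5 was at 91.0% without the end and the difference with the end was 6.86 points. With a ratio of at least 2, the count of lower genes without the end against WT was 0, in place of 7. With at least 10 cells, higher genes numbered 8 without the end against WT, and with against without the end 10 were higher and 12 lower. With 8 blocks the D-farthest block differed by -6.53 points. The setting without members whose CDR3 copied the predominant one was chosen after seeing the data. Each group was 1 mouse, so leaving out a replicate was not possible. No paired analysis was possible because each group was a single mouse and no test was made. Genes under 20 cells, which include IGHV1-4, IGHV1-34 and IGHV1-63 in the comparison with the end, were limited by depth.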
